A study of Mus musculus with 5 samples.

Results

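The genes described here are those by which intercalated cells, the acid-base transporting cells of the renal collecting system, handle protons, bicarbonate and ammonia. Rows of the count tables were taken by gene symbol for 10 genes: the anion exchangers *Slc4a1* and *Slc26a4*, the transcription factor *Foxi1*, the cell-restricted subunits of the vacuolar proton pump (V-ATPase) *Atp6v1b1*, *Atp6v0d2*, *Atp6v0a4*, *Atp6v1g3* and *Atp6v1c2*, and the ammonia channels *Rhcg* and *Rhbg*. All 10 were among the 24421 gene rows, and all 10 passed the filter on low counts that left 13874 genes for testing.

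RNAseq was performed on kidney cortical tissue, flash frozen after isolation, from 3 *Fnip1* null mice (genotype *Fnip1*-/-, mice 8637, 9210 and 9121) and 2 wildtype mice (genotype *Fnip1*+/+, mice 9055 and 9056), with 1 library from each mouse. All mice were young adults of strain C57BL6J. The null allele was made by chemical mutagenesis and is constitutive, so every cell type of these animals carried it. *Fnip1* encodes a partner of the tumor suppressor Folliculin. The study's own text calls the controls heterozygous in places, whereas the labels, which were followed here, give the wildtype genotype. No sex, age, litter or batch was labelled for single mice, and no treatment of the mice was labelled.

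Type A intercalated cells secrete acid through an apical V-ATPase and return bicarbonate to the blood through the basolateral exchanger encoded by *Slc4a1*, whereas type B cells secrete bicarbonate through the apical exchanger pendrin, encoded by *Slc26a4*. Both cell types depend on *Foxi1*, and both carry V-ATPase subunits that most other cells replace with ubiquitous paralogues. Ammonia, made mainly in the proximal tubule, leaves the body through Rh glycoprotein channels of the collecting system, where it carries secreted acid into the urine.

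Gene counts per library ranged from 15799114 to 19132145, and 3 counts corresponded to between 0.158 and 0.186 CPM, meaning each library's counts scaled to a common total after adjustment by the TMM method. All values of single mice below are such CPM, and log2 fold changes are *Fnip1* null minus wildtype from edgeR's quasi-likelihood test. *Fnip1* itself was counted at 21.0, 16.9 and 16.0 CPM in *Fnip1* null mice 8637, 9210 and 9121 and at 51.7 and 48.6 CPM in wildtype mice 9055 and 9056, with a log2 fold change of -1.48 (SE 0.14, adjusted p = 0.0330). Markers of cortical segments were abundant, with *Slc34a1* of the proximal tubule between 3960 and 6341 CPM and *Umod* of the thick ascending limb between 5209 and 7912 CPM. *Slc14a2*, a urea transporter of the medulla, stood at 81.5 CPM in wildtype mouse 9055 and 99.7 CPM in *Fnip1* null mouse 9121 and between 0.824 and 16.1 CPM in the other 3 mice. In mouse 9121 *Xist* was at 314 CPM and *Ddx3y* at 0, whereas in the other 4 mice *Xist* was between 0.171 and 1.41 CPM and *Ddx3y* between 42.8 and 52.1 CPM, so the log2 fold change of each of the 10 genes is also given without this mouse.

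All 10 intercalated cell genes had log2 fold changes above 0, as did 50.5% of all genes tested, and their median was 0.74 against 0.0035 over all genes. In 8 of the 10, all 3 *Fnip1* null mice had more CPM than both wildtype mice, an arrangement seen in 22.9% of all genes tested. The exceptions were *Slc26a4* and *Atp6v0a4*, whose genotypes overlapped. With edgeR's quasi-likelihood test, 0 of the 10 passed a false discovery rate (FDR) of 5%, with or without a 2-fold change, where 0.526% of all genes passed both criteria and 0.678% the FDR alone. At an unadjusted p under 0.05, 8 of the 10 were higher in *Fnip1* null mice, against 14% of all genes, and at an FDR of 10% the number was 5, against 4.15%.

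Other tests of the same counts called more of these genes. At an FDR of 5%, edgeR's exact test called 6 of the 10 genes higher in *Fnip1* null tissue, against 6.18% of all genes, its likelihood ratio test 6, against 6.81%, and DESeq2 7, against 6.18%. With the 2-fold criterion added, the exact test called 3, against 3.06% of all genes. The legacy form of the quasi-likelihood test called *Atp6v0d2* alone, where 0.404% of all genes were called higher and 0.533% in either direction. With library sizes alone in place of TMM, the median log2 fold change of all genes moved to 0.17 and that of the 10 genes to 0.91. All 10 signs were positive under each of the 4 scalings run. Because each library averages over the whole cortex, a larger number of intercalated cells and more RNA per cell cannot be told apart in these values.

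**Figure D1:**
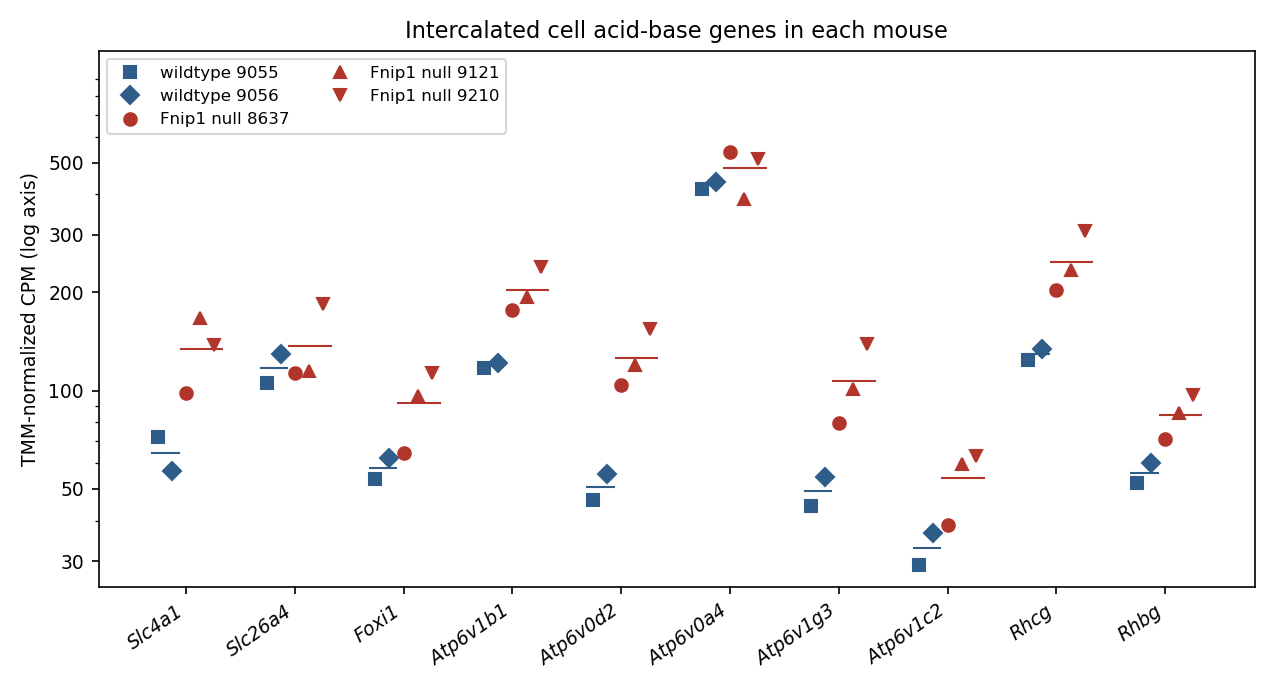
TMM-normalized CPM (log axis) of the 10 genes in each mouse, with wildtype mice in blue, *Fnip1* null mice in red and horizontal lines at the mean of each genotype. The red points lie above both blue points for 8 genes and overlap them for *Slc26a4* and *Atp6v0a4*, and *Fnip1* null mouse 9210 is the highest of its genotype in 8 genes.

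*Foxi1* encodes the forkhead transcription factor required for intercalated cells to form. On GRCm38 it lies at chr11:34204338-34208089 on the minus strand, with an exon length of 2357 bases. Its level was 64.4, 113 and 96.3 CPM in *Fnip1* null mice 8637, 9210 and 9121 and 53.6 and 62.3 CPM in wildtype mice 9055 and 9056. The 3 *Fnip1* null mice were above both wildtype mice, but mouse 8637 exceeded wildtype mouse 9056 by only a small margin. This gave a log2 fold change of 0.66 (SE 0.24, adjusted p = 0.161), with a 95% confidence interval from 0.09 to 1.23. Without mouse 8637 it was 0.86 (adjusted p = 0.0109), and without mouse 9210 it was 0.47 (adjusted p = 0.374). The related factors *Foxi2* and *Foxi3* had no count in any mouse, which allows up to 3 counts, or between 0.158 and 0.186 CPM.

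Since *Foxi1* is a forkhead factor, promoters of the 10 genes were searched on both strands for the forkhead core TGTTTNC, in which N is any base. The RefSeq promoter table on GRCm38.p6, covering 250 bases before to 50 bases after each start, held 7 of the 10 genes, with *Slc4a1*, *Atp6v0d2* and *Rhbg* not matched. The core was found in 4 of these 7 promoters (57.1%) and in 20.5% of all 32851 promoters of the table. Of the 19 ubiquitous V-ATPase subunits, the promoter table held 14 genes, with 19 promoters. The core was found in 1 of these genes, *Atp6ap1*, or 5.26% of the 19 promoters. The 4 promoters with a match, that of *Foxi1* itself among them, are printed below to show where the core lies, each from 250 to 31 bases before the start, on the gene's own strand from 5′ to 3′, with the core in capitals. Bases of this kind are a description of the sequence and do not show that a factor binds there.
Atp6v1b1, chr6:83742767-83742986, plus strand: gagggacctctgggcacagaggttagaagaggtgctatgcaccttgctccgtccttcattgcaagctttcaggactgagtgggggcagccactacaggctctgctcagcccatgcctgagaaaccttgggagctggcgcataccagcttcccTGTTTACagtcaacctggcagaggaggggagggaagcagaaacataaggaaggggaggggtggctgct
Atp6v1g3, chr1:138273488-138273707, plus strand: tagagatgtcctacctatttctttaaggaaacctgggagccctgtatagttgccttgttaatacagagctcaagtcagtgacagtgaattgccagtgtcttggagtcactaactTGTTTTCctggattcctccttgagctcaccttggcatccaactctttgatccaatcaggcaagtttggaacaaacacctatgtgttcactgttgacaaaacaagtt
Foxi1, chr11:34208120-34208339, minus strand: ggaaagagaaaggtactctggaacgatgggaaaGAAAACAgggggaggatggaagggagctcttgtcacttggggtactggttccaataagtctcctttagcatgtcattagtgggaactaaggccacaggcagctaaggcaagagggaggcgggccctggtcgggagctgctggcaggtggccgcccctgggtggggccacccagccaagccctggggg
Slc26a4, chr12:31560015-31560234, minus strand: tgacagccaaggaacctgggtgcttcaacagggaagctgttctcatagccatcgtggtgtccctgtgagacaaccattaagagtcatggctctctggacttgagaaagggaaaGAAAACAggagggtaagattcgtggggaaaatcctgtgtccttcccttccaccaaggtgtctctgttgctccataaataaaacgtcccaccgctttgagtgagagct

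In *Atp6v1b1* and *Atp6v1g3* the core stood on the gene's own strand, beginning 98 and 136 bases before the start, and in *Foxi1* and *Slc26a4* it stood on the opposite strand, at 217 and 137 bases before the start. The E-box CACGTG, the core bound by the MiT/TFE factors that drive lysosomal V-ATPase genes, was present in 0 of the 7 promoters of intercalated cell genes. It was present in 7.15% of all promoters and in 21.1% of those of the ubiquitous subunits, namely in *Atp6v0b*, *Atp6v0d1*, *Atp6v0e* and *Atp6v1a*. With only 7 promoters, a count of 0 cannot be told apart from the share of 7.15%, and no test was run.

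Among the exchangers, *Slc4a1* (chr11:102348824-102366203, minus strand) encodes the basolateral chloride-bicarbonate exchanger AE1 of type A cells and of red cells. Its level was 98.2, 138 and 167 CPM in *Fnip1* null mice 8637, 9210 and 9121 and 72.1 and 56.8 CPM in wildtype mice 9055 and 9056. The genotypes did not overlap, and mouse 9121 had the most. The difference, a log2 fold change of 1.06 (SE 0.24, adjusted p = 0.0847), stood for a mean of 134 ± 34.7 CPM (SD, n = 3) against 64.5 ± 10.8 CPM (SD, n = 2), and was 0.87 (adjusted p = 0.0789) without mouse 9121. Gene counts do not separate the kidney transcript from the longer erythroid one. Summed levels of 16 erythroid markers in the tables were between 30.6 and 36.0 CPM in *Fnip1* null and between 22.2 and 28.8 CPM in wildtype mice. These sums did not overlap, and most of them was *Alas2*, *Sptb* and *Klf1*. *Alas2* was at 23.3, 17.7 and 16.3 CPM in *Fnip1* null mice 8637, 9210 and 9121 and at 16.1 and 11.3 CPM in wildtype mice 9055 and 9056. All *Fnip1* null mice were thus above both wildtype mice (22.9% of all genes), whereas *Sptb* and *Klf1* overlapped between genotypes. The single-copy genes *Rhag* and *Gata1* had no count in any mouse. The alpha and beta globin genes were at or near 0 as well, but they occur as nearly identical copies whose shared reads the counting leaves out. What part red cells had in the level of *Slc4a1* was not tested.

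*Slc26a4* (chr12:31519827-31559969, minus strand) encodes pendrin, the apical chloride-bicarbonate exchanger of type B cells. Mice 8637, 9210 and 9121 had 113, 184 and 115 CPM, and wildtype mice 9055 and 9056 had 106 and 130 CPM. Only mouse 9210 was above both wildtype mice, and the genotypes overlapped. The log2 fold change of *Slc26a4* was 0.22 (SE 0.23, adjusted p = 0.576), with an interval from -0.34 to 0.79 that included no change as well as increases of the size found for several other members. Without mouse 9210 it was -0.042 (adjusted p = 0.905), without wildtype mouse 9055 it was 0.081, and without mouse 8637, mouse 9121 or wildtype mouse 9056 it was 0.35, 0.34 and 0.37. With library sizes alone in place of TMM it was 0.39.

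**Figure D2:**
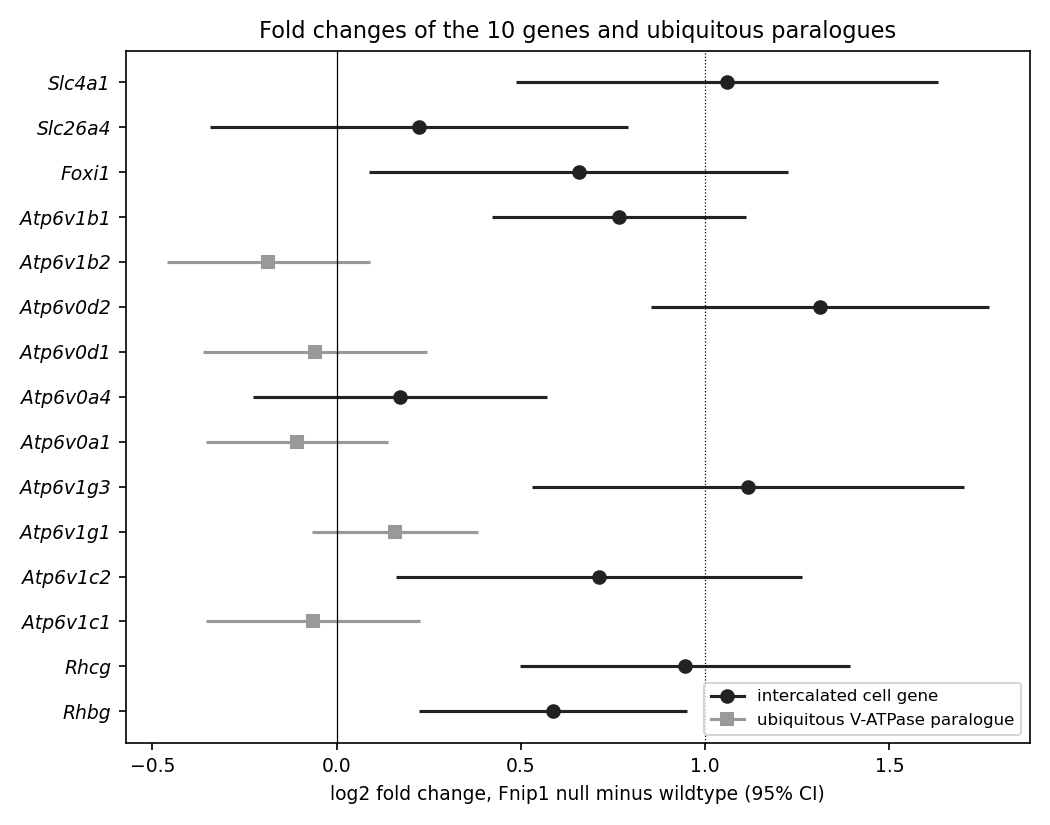
Log2 fold changes (*Fnip1* null minus wildtype, horizontal axis) with 95% confidence intervals for the 10 genes (black circles) and for the ubiquitous paralogue of each V-ATPase subunit (grey squares), with a solid line at 0 and a dotted line at a 2-fold increase. The intervals of *Slc26a4* and *Atp6v0a4* cross 0 and those of the other 8 intercalated cell genes do not, and each grey square lies between -0.19 and 0.16.

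The V-ATPase has a cytosolic V1 sector that hydrolyses ATP and a membrane V0 sector that moves protons, and 5 subunits of the set belong to it. *Atp6v0d2* (chr4:19876841-19922605, minus strand) encodes the d2 subunit of the stalk joining V0 to V1, also made by macrophages and osteoclasts. There were 104, 155 and 120 CPM of *Atp6v0d2* in mice 8637, 9210 and 9121, and 46.3 and 55.4 CPM in wildtype mice 9055 and 9056. Every *Fnip1* null mouse was far above both wildtype mice. Its log2 fold change of 1.31 (SE 0.19) was the largest of the 10 genes, and its adjusted p of 0.0506 was the closest to the 5% threshold. Over all alternatives the adjusted p ran from 1.46e-07 with DESeq2 to 0.524 without wildtype mouse 9056. It was 0.0496 in the legacy quasi-likelihood test, 0.0467 with no filter on low counts, 0.0363 without mouse 9121 and 0.00688 without mouse 8637.

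Macrophage and osteoclast markers were examined beside *Atp6v0d2*. Of 15 such genes in the tables, 14 were tested, with a median log2 fold change of 1.43. The quasi-likelihood test called 0 at an FDR of 5%, with 11 higher and 2 lower at an unadjusted p under 0.05 (14% and 11.2% of all genes), and the exact test and DESeq2 each called 9 higher (6.18% by each) and 0 lower. In 11, against 22.9% of all genes, all *Fnip1* null mice were above both wildtype mice, and in *Csf1r* and *Acp5* all were below. The summed level of the list was between 211 and 349 CPM in *Fnip1* null and between 206 and 218 CPM in wildtype mice, and so it overlapped. The most abundant markers were *Acp5*, with 50.7 to 70.0 CPM in *Fnip1* null and 74.3 to 86.1 CPM in wildtype mice, *Csf1r*, with 36.4 to 63.8 and 68.4 to 72.3 CPM, and *Lyz2*, with 15.3 to 59.8 and 8.29 to 16.3 CPM. *Oscar* of osteoclasts did not exceed 0.178 CPM. What part these cells had in the level of *Atp6v0d2* was not tested.

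*Atp6v1g3* (chr1:138273738-138289462, plus strand) encodes the kidney form of the G subunit of the V1 peripheral stalk. Mice 8637, 9210 and 9121 had 79.8, 139 and 101 CPM, and wildtype mice 9055 and 9056 had 44.2 and 54.3 CPM. The genotypes were separate, and the 3 *Fnip1* null mice spread over a wider range than the wildtype mice. *Atp6v1g3* had a log2 fold change of 1.12 (SE 0.24, adjusted p = 0.0808).

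*Atp6v1b1* (chr6:83742990-83758855, plus strand) encodes the B1 subunit of the catalytic V1 head, whose loss causes distal renal tubular acidosis with deafness in humans. Its level was 177, 239 and 193 CPM in *Fnip1* null mice 8637, 9210 and 9121 and 118 and 121 CPM in wildtype mice 9055 and 9056. The wildtype mice were close together and all *Fnip1* null mice were above them. For *Atp6v1b1* the log2 fold change was 0.77 (SE 0.14, adjusted p = 0.0687).

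*Atp6v1c2* (chr12:17284721-17329359, minus strand) encodes an isoform of the C subunit, which controls the joining of V1 to V0. Counts of *Atp6v1c2* came to 38.9, 63.0 and 59.7 CPM in *Fnip1* null mice 8637, 9210 and 9121 and to 29.2 and 36.6 CPM in wildtype mice 9055 and 9056. Mouse 8637 lay just above wildtype mouse 9056, and the other two *Fnip1* null mice lay well above it. This corresponded to a log2 fold change of 0.71 (SE 0.23, adjusted p = 0.135).

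*Atp6v0a4* (chr6:38048483-38124586, minus strand) encodes the a4 subunit of V0, which is made in proximal tubule cells as well as in intercalated cells and is also a distal renal tubular acidosis gene. It was counted at 540, 513 and 385 CPM in *Fnip1* null mice 8637, 9210 and 9121 and at 414 and 437 CPM in wildtype mice 9055 and 9056. The order of the null mice was unlike that of the other members, because mouse 8637 was highest and mouse 9121 was the lowest of all 5 mice. The log2 fold change of *Atp6v0a4* was 0.17 (SE 0.17, adjusted p = 0.542), with an interval from -0.23 to 0.57. It was 0.080 without mouse 8637 and 0.31 without mouse 9121, and 0.33 with library sizes alone in place of TMM. The 10 proximal tubule markers had a median log2 fold change of -0.47. Every *Fnip1* null mouse had less than either wildtype mouse in 7 of them (23% of all genes) and more in *Slc5a2* (0.26) and *Slc5a12* (0.63). The quasi-likelihood test called 0, with 1 higher and 4 lower at an unadjusted p under 0.05 (14% and 11.2% of all genes), the exact test 1 lower (3.63%), and DESeq2 1 higher and 3 lower (6.18% and 4.14%). Their summed level was between 11532 and 17303 CPM in *Fnip1* null and between 20225 and 22860 CPM in wildtype mice. Among them, *Slc7a13* was at 600, 202 and 4.17 CPM in *Fnip1* null mice 8637, 9210 and 9121. In wildtype mice 9055 and 9056 it was at 1205 and 1376 CPM. Mouse 9121 is the mouse with *Xist* and without *Ddx3y*, and its part in the levels of this list was not tested. The part of these cells in the value of *Atp6v0a4* was not tested. In GENCODE M21, *Atp6v0a4* shares 321 exon bases with *D630045J12Rik* on the same strand and *Tmem213* on the opposite strand. Reads on bases shared with *D630045J12Rik* cannot be assigned to 1 gene, nor can those shared with *Tmem213* if the counting ignored strand.

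*Rhcg* (chr7:79593363-79617657, minus strand) encodes the ammonia channel of the apical membrane, found in intercalated cells and in other cells of the collecting system. Mice 8637, 9210 and 9121 had 203, 309 and 234 CPM of *Rhcg*, and wildtype mice 9055 and 9056 had 124 and 134 CPM. All *Fnip1* null mice were above both wildtype mice by more than the wildtype mice differed from each other. *Rhcg* had a log2 fold change of 0.95 (SE 0.19, adjusted p = 0.0719), and it was 0.99 (adjusted p = 0.0700) without mouse 9121.

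*Rhbg* (chr3:88242874-88254709, minus strand) encodes the basolateral partner of *Rhcg*. It was counted at 70.9, 96.8 and 85.3 CPM in *Fnip1* null mice 8637, 9210 and 9121 and at 52.2 and 60.1 CPM in wildtype mice 9055 and 9056. The genotypes did not overlap, although the gap between mouse 8637 and wildtype mouse 9056 was small. *Rhbg* had a log2 fold change of 0.59 (SE 0.15, adjusted p = 0.102). In GENCODE M21 a readthrough gene, *Gm38392*, covers 1190 exon bases of *Rhbg* on the same strand, and it is not among the rows of the count tables.

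Levels of different genes were compared as CPM per kb of exon. In wildtype mice *Atp6v0a4* stood first at 85.6 ± 3.22 (SD, n = 2), followed by *Rhcg* at 57.9 ± 3.18 and *Slc26a4* at 37.8 ± 5.40 CPM per kb. *Rhbg*, *Atp6v1b1*, *Atp6v1g3* and *Foxi1* came next, between 24.6 and 29.0 CPM per kb on average, and neighbours in this order overlapped between mice. *Atp6v0d2* at 18.7 ± 2.38, *Atp6v1c2* at 15.1 ± 2.41 and *Slc4a1* at 13.2 ± 2.22 CPM per kb were last, and the last pair overlapped. The highest and lowest means were 6.49-fold apart in wildtype and 4.50-fold apart in *Fnip1* null mice. In *Fnip1* null mice *Rhcg* had 111 ± 24.3 and *Atp6v0a4* 96.4 ± 16.6 CPM per kb (SD, n = 3), with *Rhcg* ahead in mice 9210 and 9121 and *Atp6v0a4* ahead in mouse 8637. The next mean was that of *Atp6v1g3*, at 56.6 ± 16.0 CPM per kb, followed by *Atp6v0d2* and *Atp6v1b1* at 46.5 ± 9.56 and 46.4 ± 7.31 CPM per kb, and *Slc26a4*, *Rhbg* and *Foxi1* had means between 38.8 and 44.2 CPM per kb. *Slc4a1* and *Atp6v1c2* were last, at 27.5 ± 7.10 and 24.8 ± 6.02 CPM per kb, and overlapped.

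Ratios of 2 genes within a mouse do not depend on how the libraries are scaled. The ratio of *Atp6v1b1* to its ubiquitous paralogue *Atp6v1b2*, in counts per kb of exon, was 0.414, 0.594 and 0.524 in mice 8637, 9210 and 9121, against 0.264 and 0.261 in wildtype mice 9055 and 9056. It was higher in every *Fnip1* null mouse, with a log2 difference of 0.94 (exact permutation test, two-sided, p = 0.1, the smallest that 3 mice against 2 can give). *Atp6v1b2* itself had a log2 fold change of -0.19 (adjusted p = 0.349). The ratio of *Rhcg* to *Rhbg* was 2.49, 2.77 and 2.38 in mice 8637, 9210 and 9121, against 2.07 and 1.94 in wildtype mice, a log2 difference of 0.34 (exact permutation test, two-sided, p = 0.1). Here too all *Fnip1* null mice were above both wildtype mice, an arrangement that 22.9% of genes showed in their levels.

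The ratio of *Slc26a4* to *Slc4a1*, which sets the type B exchanger against the type A exchanger, was 1.82, 2.1 and 1.08 in mice 8637, 9210 and 9121, against 2.31 and 3.59 in wildtype mice 9055 and 9056. The ratio was lower in every *Fnip1* null mouse, an arrangement that 23% of genes showed in their levels, with a log2 difference of -0.84 (exact permutation test, two-sided, p = 0.2). Leaving out 1 mouse at a time gave differences from -1.16 without mouse 9055 to -0.52 without mouse 9056. Within each genotype the ratio was lowest in the mouse with the most *Slc14a2* of the medulla. These were *Fnip1* null mouse 9121, with 99.7 CPM of *Slc14a2*, and wildtype mouse 9055, with 81.5 CPM. What part medullary tissue had in this ratio was not tested. With 3 ratios tested, the adjusted values cannot pass 5%, since the smallest raw p is 0.1.

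The other 4 cell-restricted V-ATPase subunits were set against their ubiquitous paralogues in the same way, without a test. *Atp6v0d2* to *Atp6v0d1* was 0.502, 0.705 and 0.686 in mice 8637, 9210 and 9121, against 0.238 and 0.249 in wildtype mice, a log2 difference of 1.36. *Atp6v1g3* to *Atp6v1g1* was 0.249, 0.413 and 0.339 in the same mice, against 0.159 and 0.186 in wildtype mice, a log2 difference of 0.93. These ratios and that of *Atp6v1c2* to *Atp6v1c1*, with a log2 difference of 0.76, were higher in every *Fnip1* null mouse. Of all genes, 22.9% showed this arrangement in their levels, and the cell-restricted subunits of these ratios were already among them. The ratio of *Atp6v0a4* to *Atp6v0a1* was 12.4, 12.2 and 7.78 in mice 8637, 9210 and 9121, against 8.40 and 9.15 in wildtype mice, and the genotypes overlapped. *Atp6v0a4* was the 1 cell-restricted subunit with more counts per kb than its ubiquitous paralogue in every mouse.

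**Figure D3:**
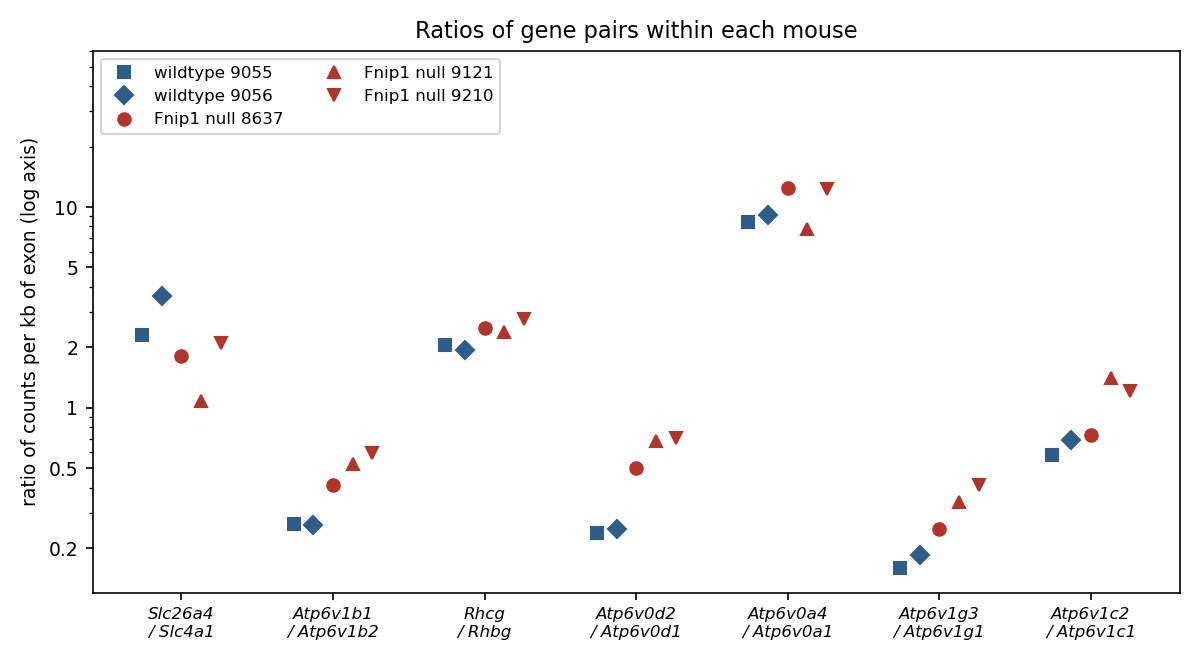
Ratios of counts per kb of exon (log axis) for 7 gene pairs within each mouse, with wildtype mice in blue and *Fnip1* null mice in red. The ratio of *Slc26a4* to *Slc4a1* is lower in every *Fnip1* null mouse, that of *Atp6v0a4* to *Atp6v0a1* overlaps between genotypes, and the other 5 are higher in every *Fnip1* null mouse. Of all genes tested, 22.9% had levels higher and 23% levels lower in every *Fnip1* null mouse.

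Among the 19 V-ATPase subunits and accessory genes listed as ubiquitous, the quasi-likelihood test called 0 at an FDR of 5%. At an unadjusted p under 0.05, 1 gene was higher and 2 were lower. The exact test called 0 higher and 2 lower, and DESeq2 1 higher and 2 lower. Over all genes, 14% were higher and 11.2% lower at an unadjusted p under 0.05, the exact test called 6.18% higher and 3.63% lower, and DESeq2 6.18% higher and 4.14% lower. The median log2 fold change of these 19 genes was 0.05, with a range from -0.48 to 0.45. The genes with the smallest p were *Atp6v0e2* (log2 fold change -0.48), *Atp6v0a2* (-0.42) and *Atp6ap2*, the prorenin receptor gene (0.45). The summed level of the list was between 3497 and 3841 CPM in *Fnip1* null and between 3506 and 3799 CPM in wildtype mice, so it overlapped, whereas the 10 intercalated cell genes summed to between 1489 and 1949 CPM in *Fnip1* null and between 1059 and 1148 CPM in wildtype mice.

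Another 20 genes known from intercalated cells were listed by function. In 14 of them all *Fnip1* null mice were above both wildtype mice and in 2 all were below, against 22.9% and 23% of all genes, and the median log2 fold change was 0.62. The quasi-likelihood test called 0 at an FDR of 5%, with 13 higher and 2 lower at an unadjusted p under 0.05 (14% and 11.2% of all genes). The exact test called 8 higher and 2 lower (6.18% and 3.63%), and DESeq2 9 higher and 2 lower (6.18% and 4.14%). Those with the smallest p were *Oxgr1*, the oxoglutarate receptor gene (log2 fold change 1.03, adjusted p = 0.0554), *Car15*, a membrane carbonic anhydrase gene (0.98, adjusted p = 0.0593), and *Dmrt2*, a transcription factor gene of type A cells (1.59, adjusted p = 0.0644). The lower genes were *Kcnma1*, which encodes the large-conductance potassium channel (-0.88), and *Slc12a2*, which encodes a sodium-potassium-chloride cotransporter (-0.69).

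Genes of neighbouring distal segments also had mostly positive log2 fold changes. Of 10 principal cell markers, 7 were above both wildtype mice in all *Fnip1* null mice, against 22.9% of all genes, with a median log2 fold change of 0.51. The quasi-likelihood test called 0 of them, with 6 higher at an unadjusted p under 0.05 (14% of all genes), and the exact test and DESeq2 each called 5 higher (6.18% of all genes by each). The 3 with the smallest p were *Scnn1g* (0.62), *Aqp2* (0.76) and *Gata3* (0.77), which encode a sodium channel subunit, the vasopressin-regulated water channel and a transcription factor. Of the 10, 8 had positive log2 fold changes. *Avpr2* (-0.47) was lower in every *Fnip1* null mouse, against 23% of all genes, and *Fxyd4* (-0.22) overlapped between genotypes. Principal cell markers summed to between 1231 and 1687 CPM in *Fnip1* null and between 1041 and 1042 CPM in wildtype mice. Among 8 connecting and distal convoluted tubule markers, 1 passed the quasi-likelihood test at an FDR of 5%, against 0.526% of all genes called higher. It was *Trpv5*, the calcium channel gene of these segments, with a log2 fold change of 1.26 (SE 0.16, adjusted p = 0.0411). The median of the 8 was 0.34, and in 4 all *Fnip1* null mice were above both wildtype mice (22.9% of all genes). At an unadjusted p under 0.05, 4 were higher (14%). The exact test called 2 higher and DESeq2 3 (6.18% by each). What part the share of distal tissue in each piece of cortex had in the levels of the 10 genes was not tested.

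Of 12 genes listed for the fate of collecting duct cells, with the *Foxi1* relatives *Foxi2* and *Foxi3* among them, 10 were tested. Their median log2 fold change was 0.15. The quasi-likelihood test called 0 of them, with 3 higher at an unadjusted p under 0.05 (14% of all genes), and the exact test and DESeq2 each called 2 higher (6.18% by each). The 3 were *Gata3*, the Notch receptor gene *Notch1* (0.72) and the Notch target *Hes1* (0.46), while *Tfcp2l1*, which acts upstream of *Foxi1*, had a log2 fold change of 0.27 (adjusted p = 0.248).

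The proximal genes that reclaim bicarbonate and make ammonia did not share the direction of the intercalated cell genes. Of 10 such genes, 2 had a positive log2 fold change, 4 were lower in all *Fnip1* null mice, against 23% of all genes, and the median was -0.29. The quasi-likelihood test called 0 at an FDR of 5%, with 4 lower at an unadjusted p under 0.05 (11.2% of all genes), and the exact test called 3 lower (3.63%) and DESeq2 4 lower (4.14%). Those with the smallest p were *Car4*, which encodes the luminal carbonic anhydrase (log2 fold change -1.05, adjusted p = 0.0738), and *Slc1a1*, which encodes a glutamate transporter (-0.60, adjusted p = 0.0982). *Pck1*, a gene that acidosis is known to induce, overlapped between genotypes with a log2 fold change of -0.26 and an interval from -1.01 to 0.49. The part of acid-base state in any of these values was not tested.

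**Figure D4:**
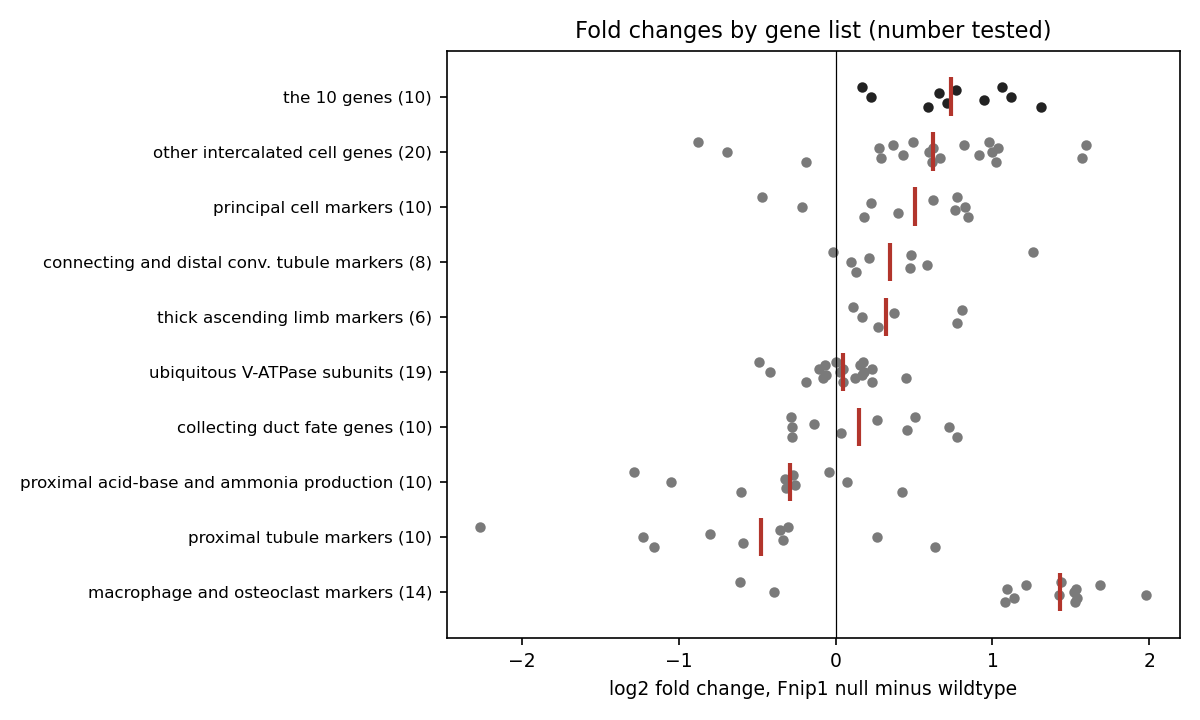
Log2 fold changes (*Fnip1* null minus wildtype) of single genes by list, 1 point per tested gene, with a red bar at each list's median and the number tested in brackets. The 10 genes lie to the right of 0 with a median of 0.74, the other intercalated cell genes have a median of 0.62, the ubiquitous V-ATPase subunits centre on 0.05 and the proximal lists lie mostly to the left of 0.

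The *Fnip1* null mice did not contribute evenly. Mouse 9210 had the highest level of the 3 in 8 of the 10 genes, mouse 8637 in *Atp6v0a4* and mouse 9121 in *Slc4a1*. Mouse 8637 had the lowest level of the 3 in 9 of the 10, the exception being *Atp6v0a4*. Without mouse 8637, 8 of the 10 genes passed an FDR of 5%, with adjusted p from 0.00688 for *Atp6v0d2* to 0.0140 for *Rhbg*, and 10% of all genes were called higher. *Slc4a1*, *Atp6v0d2*, *Atp6v1g3* and *Rhcg* were then past 2-fold as well, against 4.73% of all genes. Without mouse 9121, *Atp6v0d2* alone passed, against 0.887% of all genes, and its log2 fold change of 1.35 passed 2-fold too, against 0.644%. The other log2 fold changes without mouse 9121 were 0.62 for *Foxi1*, 0.80 for *Atp6v1b1*, 1.15 for *Atp6v1g3*, 0.63 for *Atp6v1c2* and 0.58 for *Rhbg*. Without mouse 9210 or without either wildtype mouse, the quasi-likelihood test called 0 of the 10 genes and 0 of all genes. In those fits with 1 wildtype mouse, that mouse was assumed to vary as the *Fnip1* null mice did.

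**Figure D5:**
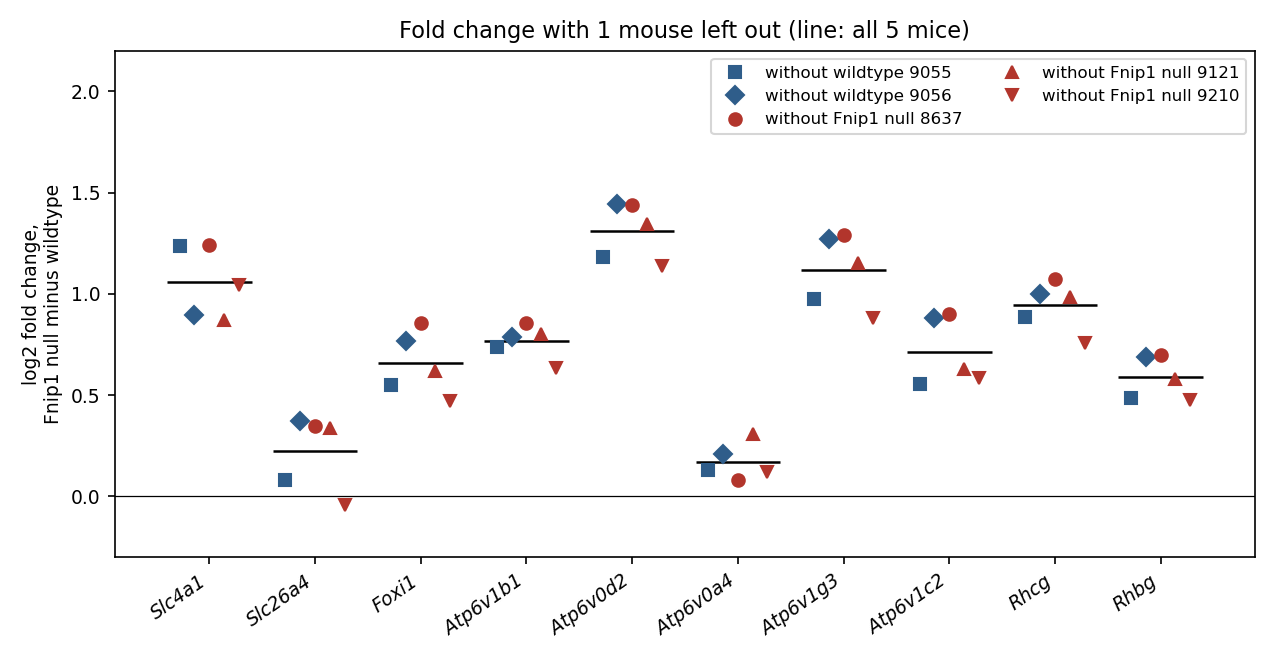
Log2 fold change (vertical axis, *Fnip1* null minus wildtype) of each of the 10 genes with 1 mouse left out, each symbol standing for the mouse left out, and a black line at the value from all 5 mice. All points lie above 0 except that of *Slc26a4* without mouse 9210, at -0.042.

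Outside the 10 genes, the genes whose levels over the 5 mice were most like those of *Foxi1* were sought among 13272 genes, as the root mean square difference of log2 CPM after each gene was centred on its mean. The closest was *Zfp248* (0.0451), followed by *Ube2c* (0.0582), *Lgals3* (0.0624), *Plcg2* (0.0631) and *Lipe* (0.0680). Among the other members, *Atp6v1c2* ranked 7 (0.0686), *Rhbg* 64, *Atp6v1b1* 243 and *Rhcg* 359. Less alike were *Atp6v1g3* at rank 924, *Slc26a4* at 1517, *Slc4a1* at 2306, *Atp6v0d2* at 3253 and *Atp6v0a4* at 6232. These ranks rest on 5 mice and are a description.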

How the data were processed

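RNAseq of kidney cortical tissue covered 5 mice. The deposited values are counts of reads per gene symbol, made by the authors, per the labels' processing notes, with TopHat 2.1.0 on mm10 and HTSeq 0.6.1. The strand setting is not given in the sources used here. HTSeq leaves out reads that align to several places or overlap several genes, and 39.0 to 42.8% of reads were in its rows for unassigned reads, which were kept out of library sizes. The deposited table of mouse 9210 carries another number than its label, which was followed. No 2 libraries agreed within sampling noise. The analysis used edgeR 4.0.16 in R 4.3.3. Genes with fewer than 10 counts in more than 2 mice were dropped, libraries were scaled by TMM, and genotypes were compared with the quasi-likelihood test (glmQLFit with legacy set to FALSE), with Benjamini-Hochberg adjustment over 13874 genes. A call needed an FDR of 5% and a 2-fold change. SE and 95% intervals came from the fold change and its F statistic. They rest on the spread between these mice, with each gene's variance estimate drawn partly towards that of all genes tested. Scripts were tested on simulated data. Alternatives were edgeR's exact, likelihood ratio and legacy tests, DESeq2 1.42.0, other scalings and filters, and leaving out each mouse. Coordinates, overlaps and exon lengths are from GENCODE M21 on GRCm38, of which mm10 is the UCSC name, matched by symbol, and promoters from RefSeq on GRCm38.p6. The likeness to *Foxi1* used a pseudocount of 0.5 CPM and genes of at least 1 CPM on average. Genes named were all 10 members, *Fnip1*, ubiquitous paralogues, and in each list those past an FDR of 5% or the 3 with the smallest p, except that some list genes are not reported here. Other list genes were named after their values were seen. The members and lists were chosen with earlier results of these data known.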

Additional observations from a re-analysis of the deposited data

How the results depend on the processing

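Over 14 alternatives for each of the 10 genes, 139 of 140 log2 fold changes stayed positive. The exception was *Slc26a4*, at -0.042 without *Fnip1* null mouse 9210. With 1 mouse left out it ran from -0.042 to 0.374, and its highest value was 0.39 with library size only. The number of the 10 past an FDR of 5% and 2-fold, 0 with the quasi-likelihood test, was 3 with the exact test, 3 with the likelihood ratio test, 3 with DESeq2, 3 at an FDR of 10%, and 1 each with the legacy method, library size only, no filter and filterByExpr, and it ran from 0 to 4 with 1 mouse left out. At an FDR of 5% without a fold threshold it was 6 with the exact and 6 with the likelihood ratio test, 7 with DESeq2, and 1 each with the legacy method, library size only, no filter and filterByExpr, and it ran from 0 to 8 with 1 mouse left out. Over all genes, the 73 past the threshold became 570, 628 and 487 with the exact test, the likelihood ratio fit and DESeq2 and 357 at an FDR of 10%, and ran from 0 to 962 with 1 mouse left out. In the 4 lists of other intercalated cell, ubiquitous V-ATPase, fate and proximal genes, the count of 0 became 6, 6 and 6 with these tests and 5 at an FDR of 10%, and ran from 0 to 9. Why the tests differed was not tested. Ratio differences kept their sign with each mouse left out.

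With 3 mice against 2, no permutation of a single value can pass 5%, and leaving out a wildtype mouse leaves 1. No paired analysis was possible because the labels give the genotypes no shared replicate numbers. The comparison of protein sequences between isoforms was not run. Counting error is small at these levels, so the spread between mice sets the precision.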

Other observations

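Some of the listed intercalated cell genes can be set out by cell type, a grouping made after their values were seen and not tested. Of the other 20 genes listed by function, 17 had positive log2 fold changes. The remaining ones, *Kcnma1* (-0.88), *Slc12a2* (-0.69) and *Syt7* (-0.19), were not placed in either group, and neither were some of the 17. Beside *Slc4a1*, the genes of type A cells *Aqp6*, *Dmrt2*, *Kit*, *Adgrf5* and *Slc26a7* had log2 fold changes of 1.57, 1.59, 0.67, 1.04 and 0.59. *Aqp6*, a vesicle anion channel of the aquaporin family, was counted at 91.5, 147 and 150 CPM in *Fnip1* null mice 8637, 9210 and 9121 and at 53.3 and 33.8 CPM in wildtype mice 9055 and 9056. Beside *Slc26a4*, the genes of type B cells *Slc4a9*, *Hmx2*, *Insrr*, *Slc4a8* and *Oxgr1* had log2 fold changes of 0.62, 0.62, 0.29, 0.82 and 1.03. *Slc4a9*, a basolateral anion exchanger, was counted at 90.7, 147 and 108 CPM in *Fnip1* null and at 67.2 and 82.8 CPM in wildtype mice. The genotypes overlapped in *Slc26a7* and *Insrr* and were separate in the others, and the fold changes of the type A and type B genes overlapped in range. Adjusted p of these genes in the quasi-likelihood test ran from 0.0554 for *Oxgr1* to 0.454 for *Insrr*.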
